A study of Homo sapiens with 4 samples.

Results

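The comparison described here is that of IFN-γ-treated with untreated FLI1-knockout HK1 cells, read from the lists of open-chromatin regions (peaks) of the 2 libraries. HK1 is an established human nasopharyngeal carcinoma line. The library labelled sgFLI1 came from cells in which a guide RNA against FLI1, a transcription factor of the ETS family, had disrupted the gene (FLI1-KO), and was left untreated. The library labelled sgFLI1-IFN-γ came from FLI1-KO cells given the cytokine interferon-γ (IFN-γ). Wild-type (WT) cells without and with IFN-γ served for comparison, so that the series held 4 groups of 1 library each. The labels do not say which guide was used or whether the FLI1-KO cells were 1 clone, and a list of peaks does not show a small deletion, so the genotype rests on the labels. Accessibility had been measured by ATAC-seq, in which a transposase inserts adapters into DNA that is not wrapped in nucleosomes.

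The study asked how FLI1 bears on the chromatin response of tumor cells to IFN-γ. A peak was counted as shared when it overlapped a peak of the other list by at least 1 bp, as gained when it was listed only after IFN-γ, and as lost when it was listed only without it, on chromosomes 1 to 22 and X. The sgFLI1-IFN-γ list held 59923 peaks, of which 10776 (18.0%) were gained and 49147 were shared. The sgFLI1 list held 63203 peaks, of which 14047 (22.2%) were lost and 49156 were shared. These 123126 peaks were part of the 250225 peaks of all 4 lists, which merged into 93211 regions. With 1 library per group no spread between replicates was known, and the groups were compared without a test. Intervals are at the 95% level and cover counting error within a library only.

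IFN-γ acts through a receptor on the cell surface whose JAK kinases activate STAT transcription factors. These induce a first wave of genes that includes the transcription factor IRF1, and IRF factors bind paired GAAA elements at a second wave of genes for antigen presentation, guanylate-binding proteins (GBPs) and antiviral effectors. Many of the induced genes gain open chromatin at their promoters or nearby enhancers. In epithelial tumor cells the response includes ligands that restrain T cells and IDO1, which opens the kynurenine pathway of tryptophan breakdown.

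Of the regions gained near IFN-γ-inducible genes, 4 held an IRF motif, GAAA, any 2 bases, then GAAA, on either strand within 100 bp of the summit, the position of the highest pileup. They are printed here because they join the cytokine's genes, its factors' motif and a peak listed only after IFN-γ. The reference sequence of GRCh38 is given on the plus strand around each motif, which is in capitals. The stretches were limited to bases outside annotated untranslated exons, except for the first, which lies in one and was cut to 30 bases.
GBP1, chr1:89065316-89065345: agagtaatatGAAACTGAAAgtacttcgtt
GBP1, chr1:89070104-89070190: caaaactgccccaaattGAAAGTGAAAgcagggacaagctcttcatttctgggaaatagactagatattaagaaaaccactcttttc
IFI27, chr14:94110634-94110677: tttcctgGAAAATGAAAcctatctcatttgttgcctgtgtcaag
CCL5, chr17:35890109-35890195: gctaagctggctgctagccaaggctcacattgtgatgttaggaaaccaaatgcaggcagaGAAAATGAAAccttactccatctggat
GBP1 encodes an IFN-γ-induced GTPase that attacks vacuoles of intracellular pathogens. Its promoter region, with the summit at -76 bp from the transcription start site (TSS), where minus means upstream, stood at 21 tags (95% Poisson interval 13 to 32.1) after IFN-γ. A second region at -4844 bp stood at 10 tags (4.80 to 18.4). The IFI27 promoter region, at an antiviral effector gene, had 16 tags (9.15 to 26.0). The region at -9302 bp from CCL5, a T cell-attracting chemokine, had 15 tags (8.40 to 24.7). By the definition of gained, none of the 4 overlapped a peak of untreated FLI1-KO cells. None overlapped a peak of untreated WT cells, and each overlapped a WT-IFN-γ peak, of 100, 53, 53 and 24 tags in the same order.

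Tags are the fragments counted over a summit, recovered from the fold and p-value listed for each peak. Both libraries of FLI1-KO cells had nearly the same depth, at 6.93 tags per kb of genome without IFN-γ and 6.86 with it, or 0.990 of the former, and the median peak had 27 and 26 tags. The WT libraries were deeper, at 8.04 and 8.84 tags per kb. A region absent from a list has no value there, so its level was set against the listing limit, the fewest tags which that library would have listed over the same local background, usually 7 tags for gained and for lost regions. Of 8 markers of squamous epithelium, 3 had a peak within 1 kb of a TSS in both lists, namely SFN with 106 and 107 tags, EPCAM with 35 and 36, and KRT17 with 39 and 18. TP63, KRT5, KRT14, DSG3 and CDH1 had none in either list. Of 6 lymphoid and myeloid markers only CD14 had one, and of 4 endothelial and stromal markers only COL1A1, with 132 tags untreated and 157 after IFN-γ.

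Gained and lost regions alike were low peaks far from TSSs. The median gained region had 11 tags and was 358 bp wide, and the median lost region had 12 tags and was 372 bp wide, whereas the median shared peak had 32 tags after IFN-γ and 35 without. Of the peaks with up to 15 tags, 51.8% (Wilson interval 51.1 to 52.6) of the sgFLI1-IFN-γ list were gained and 61.6% (60.8 to 62.3) of the sgFLI1 list were lost. Of those with over 30 tags, 1.52% (1.38 to 1.68) were gained and 2.02% (1.86 to 2.19) were lost. The share lost was above the share gained in each of the 3 height classes, and more regions were lost than gained on 23 of 23 chromosomes. The gained share of a chromosome's peaks ran from 12.7% on chromosome 19, where the median peak had 38 tags, to 27.5% on chromosome 13, where it had 20.

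The summit lay within 3 kb of a TSS of a protein-coding gene for 9.74% (9.20 to 10.3) of gained and 10.3% (9.78 to 10.8) of lost regions, against 30.0% of shared peaks. Height went along with this difference. Among peaks of up to 15 tags, 7.37% of gained and 7.66% of shared sgFLI1-IFN-γ peaks lay within 3 kb of a TSS, and for lost and shared sgFLI1 peaks the shares were 7.66% and 7.56%. Introns held 37.5% of gained and 37.5% of lost regions, and intergenic DNA held 49.1% and 48.3%. The median distance to a TSS was 34650 bp for gained, 34504 bp for lost and 15191 bp for shared peaks of the sgFLI1-IFN-γ list. Gained and lost regions were thus placed alike, which the plot of height and distance shows.

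**Figure D1:**
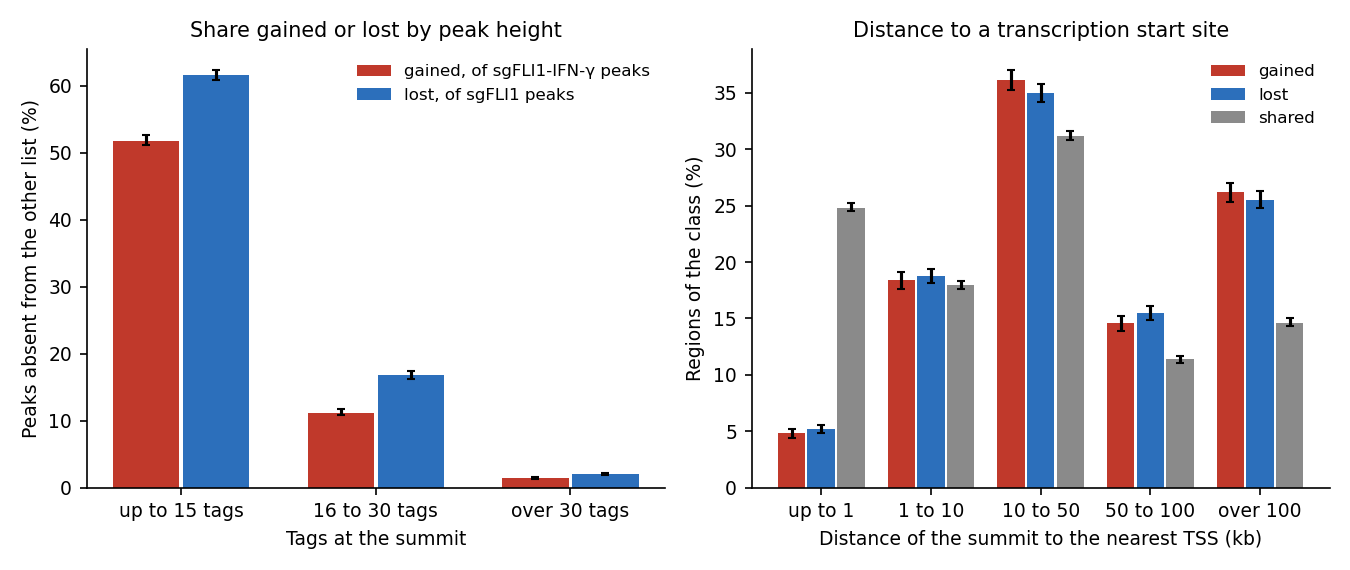
Left, the percent of peaks absent from the other list by the number of tags at the summit, and right, the percent of gained, lost and shared regions by distance of the summit to the nearest TSS of a protein-coding gene. Bars are shares with Wilson 95% intervals. The share gained falls from 51.8% among peaks of up to 15 tags to 1.52% among those over 30 tags, and gained and lost regions have nearly the same distances.

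The level in the other library bounds how far these regions changed. At least 2 times the listing limit of the other library was reached by 1465 gained regions (13.6%) and 1797 lost regions (12.8%), and at least 3 times by 112 and 183. After scaling, 17 gained and 705 lost regions stood below the limit. A lost region with as many tags as its limit stood at 0.990 of it, and such a gained region at 1.01. Ties therefore counted as below the limit among lost regions only, and the 2 counts are not comparable. The multiples of the limit were affected in the same way. A region with exactly 2 times its limit in unscaled tags stood at 2.02 times if gained and at 1.98 if lost. Only the gained one was counted, so the shares of 13.6% and 12.8% do not rank gained against lost regions. At least 1.5 times the limit was reached by 38.3% of gained and 42.6% of lost regions, the opposite order. Among gained regions at least 400 bp wide, the one near PTK2B, the gene of a focal adhesion kinase, exceeded the limit most, with 30 tags (20.2 to 42.8) against a limit of 7. The next was intergenic, 22454 bp downstream of the TSS of TNFAIP2, a gene induced by TNF, with 46 tags (33.7 to 61.4) against 11. A region 19842 bp downstream of the TSS of TANK, which encodes an adaptor in TRAF and interferon signalling, had 27 tags (17.8 to 39.3) against 7 and held an IRF motif. The nearest genes of the other 5, in order, were TMEM14A, SLC1A4, PTPRM, RASSF3 and CNDP1, with 26 to 33 tags. A WT peak overlapped 7 of these 8 regions, and untreated WT cells had one at 6 of them, with 42 tags near PTK2B and 49 near TNFAIP2.

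Among lost regions at least 400 bp wide, the one that exceeded the limit most lay 62738 bp from the TSS of CYSLTR2, a leukotriene receptor gene, and had 67 tags (51.9 to 85.1) against a limit of 11. It was followed by an intronic region near TYW1B with 41 tags (29.4 to 55.6) against 8, and by one near UCHL1, which encodes a deubiquitinase, with 37 tags (26.1 to 51.0) against 8. The region near CYSLTR2 had 59 tags in untreated WT cells and 64 in treated ones, and that near UCHL1 had 45 and 35. The other 5 lay near GTPBP1, MARCHF5, ZNF280B, ZMYM5 and KIR2DL1, with 31 to 50 tags. A peak of untreated WT cells overlapped 7 of the 8, all but the one near KIR2DL1. None of these 16 regions had a member of the IFN-γ list described next as its nearest gene.

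A list of 139 IFN-γ-inducible genes in 10 groups was used to follow the genes of the cytokine. A gained region lay within 10 kb of a TSS of 31 of them (22.3%), compared with 13.0% of all protein-coding genes (2557 of 19618). A lost region lay near 27 (19.4%), compared with 17.4% of all (3413). A total of 7 genes had both. Distinct regions numbered 32 gained and 32 lost. An IRF motif was found in 4 of the gained and 0 of the lost ones. After scaling for depth, 4 gained and 2 lost regions reached 2 times the limit. The gained ones included those of OAS2 and CASP8, at 2.02 times. Lost regions near ISG15, ERAP2 and HLA-DPA1, and one of 16 tags near IFI16, had 2 times the limit in unscaled tags. After scaling they stood at 1.98 times and were not counted.

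Of 7 GBP genes, 2 had a gained region (28.6%) and 0 a lost one. The shares of this and the following groups stand against 13.0% gained and 17.4% lost among all protein-coding genes. Besides both GBP1 regions, one at -1823 bp from GBP5, an organizer of inflammasome assembly, had 19 tags (11.4 to 29.7) against a limit of 10. In WT-IFN-γ the region near GBP5 had 127 tags, and the untreated WT list did not hold it. GBP4 and GBP7 had no peak within 10 kb in either FLI1-KO list.

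Of 11 genes of MHC class II, which presents antigen to CD4+ T cells, 5 had a gained (45.5%) and 2 a lost region (18.2%). The CD74 promoter, at the gene of the invariant chain, had 25 tags (16.2 to 36.9) against a limit of 17, and 44 in WT-IFN-γ. HLA-DMA and HLA-DMB, which edit the peptide, shared a region of 14 tags. CIITA, the master regulator of class II, had one of 10 tags inside the gene, 8773 bp from a TSS, and HLA-DOA one of 8 tags 9342 bp away. The lost region lay between HLA-DPA1 and HLA-DPB1 and had 14 tags (7.65 to 23.5) against a limit of 7. Of 18 genes of MHC class I and peptide loading, only NLRC5 (5.56%), the transactivator of class I, had gained regions, with 12 and 9 tags. Lost regions lay near 3 of the 18 (16.7%), namely B2M, the light chain of class I, with 12 tags, the peptidase gene ERAP2 with 18 and TAPBPL with 8.

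Antiviral effectors had a gained region at 8 of 37 genes (21.6%) and a lost one at 7 (18.9%), against 13.0% and 17.4% of all protein-coding genes. OAS2, a sensor of double-stranded RNA, gained a promoter region of 18 tags (10.7 to 28.4) against a limit of 9, and this region had 87 tags in WT-IFN-γ. Regions of 14 and 15 tags lay inside IFIT2 and IFIT3, one of 15 tags near OASL, and one of 10 tags upstream of ISG20. IFITM1 and IFITM2, which block viral entry, shared a gained region of 29 tags as well as a lost one of 15. The lost regions near ISG15 (30 tags, limit 15) and IFI6 (37 tags, limit 27) each overlapped a WT-IFN-γ peak, of 48 and 59 tags. TRIM22 had 4 lost regions of 8 to 11 tags, IFI16 had 2 of 22 and 16 tags, and RNF213 had 1 of 17 tags.

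In the group of cell death and APOL genes, 5 of 12 had a gained region (41.7%) and 2 a lost one (16.7%). CASP8, the initiator of receptor-driven apoptosis, had 44 tags (32.0 to 59.1) against a limit of 22, at a region that had 99 tags in WT and 103 in WT-IFN-γ. Regions at 56 bp from a TSS of CASP4 and 206 bp from a TSS of APOL3 had 11 tags each against 7, and a region inside TNFSF10 had 9. Both CASP4 and APOL3 also had a promoter peak at another TSS in both FLI1-KO lists. It had 29 tags untreated and 37 after IFN-γ for CASP4, and 9 and 12 for APOL3. At TNFSF10, which encodes the death ligand TRAIL, the promoter itself was lost, with 9 tags (4.12 to 17.1) without IFN-γ against a limit of 7, while the same place had 58 tags in WT-IFN-γ. A lost region of 50 tags lay near GSDMD, against a limit of 40.

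The transcription factor gene IRF1 had 2 gained regions, of 34 tags (23.5 to 47.5) against a limit of 25 and of 12 tags, and 1 lost region of 18 tags. The higher of them had 150 tags in WT-IFN-γ. SOCS3, a feedback inhibitor, had a gained region of 13 tags at a limit of 13, and the receptor gene IFNGR2 a lost one of 8. The promoter of the adhesion ligand ICAM1 was gained with 24 tags (15.4 to 35.7) against 14, and a second ICAM1 region was lost with 9. LGALS9 had a gained region of 15 tags. CD40 had 2 lost regions, of 8 and 12 tags, each at a limit of 8, and the TNFSF13B promoter was lost with 9 against 7. Apart from CCL5, the only chemokine gene with a changed listing was CX3CL1, with a lost region of 7 tags at a limit of 7. CXCL9, CXCL10, CXCL11 and CCL7 had no peak within 10 kb in either list.

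The remaining gained regions lay near PARP10 (22 tags, limit 17), UBA7 (10, limit 10), C1R (7, limit 7), GCH1 (16, limit 9) and PLAAT4 (13, limit 12). Those near UBA7 and C1R thus only met the limit. The remaining lost ones lay near PARP10 (17 and 27 tags, limits 12 and 11), PARP14 (8, limit 7), SP140L (18, limit 12) and IFI30 (20, limit 11). Others lay near PLAAT4 (16, limit 13), SECTM1 (11 and 36, limits 9 and 21) and WARS1 (20, limit 13). Of the 32 gained regions of the list, 23 overlapped a WT-IFN-γ peak and 16 of these no untreated WT peak. For the 32 lost regions the counts were 17 and 10. Over all gained regions, 15.7% (15 to 16.4) overlapped a WT-IFN-γ peak and no untreated one, and over all lost regions 12.4% (11.9 to 13.0).

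**Figure D2:**
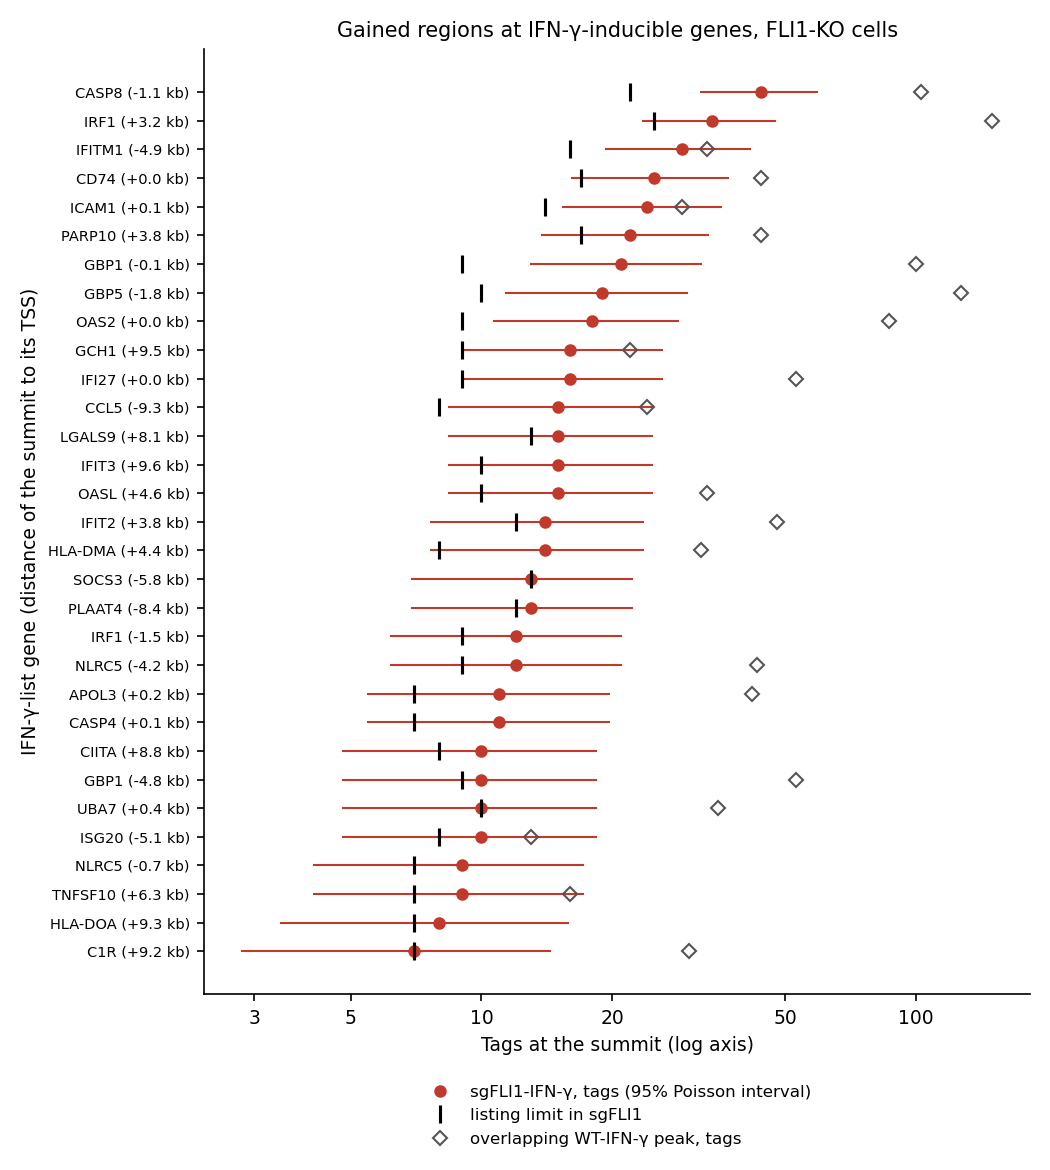
Regions gained after IFN-γ in FLI1-KO cells within 10 kb of a TSS of an IFN-γ-inducible gene, 31 of the 32, 1 row each, with the tags at the summit on a log axis, the 95% Poisson interval, the listing limit in untreated FLI1-KO cells and the tags of the overlapping WT-IFN-γ peak where there is one. The promoter region of GBP1 and the regions of GBP5, OAS2 and IFI27 stand at 16 to 21 tags in FLI1-KO cells and at 53 to 127 in WT-IFN-γ.

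Genes whose promoter peak was in both lists were compared by the ratio of tags, treated over untreated, after division by tag density. Among 10979 protein-coding genes whose promoter pair summed to at least 60 tags, the median log2 ratio was -0.17, 17 (0.155%) were past 1.5-fold higher and 244 (2.22%) past 1.5-fold lower. Of the IFN-γ list, 77 genes had such a pair, with a median log2 ratio of -0.11, 1 gene past 1.5-fold higher and 1 lower. A total of 48 of the 77 lay above the median of all shared peaks, -0.16, as did 5352 of the 10979.

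Among these 77, the single promoter past 1.5-fold higher was that of IFI16, a sensor of foreign DNA, at 36 tags untreated and 57 after IFN-γ, a ratio of 1.60 (exact counting interval 1.04 to 2.50). In WT cells the same promoter went from 27 to 142 tags. The lost regions near IFI16, of 22 and 16 tags, also lay at promoters, with summits at -1080 and -32 bp from a TSS of the gene. IFI30, a lysosomal thiol reductase, had 48 and 69 tags, a ratio of 1.45 (0.991 to 2.15). GBP2 had 25 and 36 tags, a ratio of 1.46 (0.850 to 2.53). The next were CASP4 (29 and 37 tags), IFIT2 (30 and 38), OAS3 (34 and 43), IFIT5 (52 and 65) and CFB (98 and 121, a ratio of 1.25, 0.948 to 1.65). Of the 77, IFI16, IFI30 and CFB had a counting interval wholly above the median ratio of all shared peaks. Below the minimum of 60 tags, and named after their values were seen, BATF2, a transcription factor gene, had 16 and 30 tags (1.89, 1.00 to 3.72), with 22 and 81 in WT cells. The OASL promoter had 13 and 20 tags (1.55, 0.736 to 3.40), and of these 2 intervals that of BATF2 also lay above the median ratio.

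At the other end, IFITM3, a restriction factor for enveloped viruses, had 73 tags untreated and 44 after IFN-γ, a ratio of 0.609 (0.409 to 0.897). DDX60 had 62 and 41 tags, HLA-B 64 and 45, and the RNA sensor gene IFIH1 55 and 39. BST2, which encodes tetherin, had 107 and 77 tags, a ratio of 0.727 (0.535 to 0.984). Signalling genes followed, with STAT2 at 151 and 113 tags (0.756, 0.587 to 0.971) and JAK2 at 160 and 121 (0.764, 0.598 to 0.974), and then ADAR at 104 and 81. For none of the 77 did the interval lie wholly below the median ratio of all shared peaks. CD274, the gene of the checkpoint ligand PD-L1, picked after its values were seen, had 105 and 96 tags, and went from 44 to 81 in WT cells.

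In WT cells, 39 of 83 list promoters (47.0%) had a counting interval wholly above the median ratio of shared WT peaks, compared with 3 of 77 (3.90%) in FLI1-KO cells. The 74 list promoters measured in both had a median log2 ratio of 0.28 in WT and -0.11 in FLI1-KO cells. Relative to the median promoter of each pair (-0.08 and -0.17), 60 of the 74 (81.1%) had the larger value in WT, as did 49.9% of all 10689 genes measured in both. Of 21 list promoters past 1.5-fold higher in WT, 1 was past it in FLI1-KO cells and 17 lay above the FLI1-KO median. The WT libraries were deeper, and whether WT and FLI1-KO cells differ here was not tested.

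**Figure D3:**
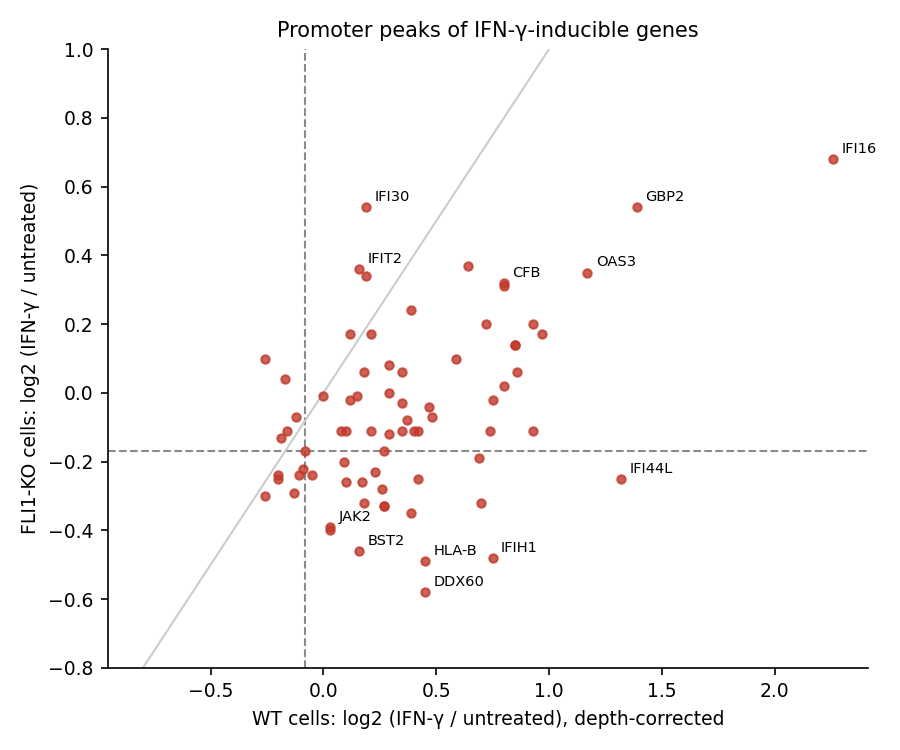
Promoter peaks of 74 IFN-γ-inducible genes, each a point, with the log2 ratio of tags (IFN-γ over untreated, divided by tag density) in WT cells on the x axis and in FLI1-KO cells on the y axis. Dashed lines are the medians of all promoters, -0.08 and -0.17, and the grey line marks equal ratios. Most points lie to the right of and below the grey line, with IFI16 the highest in both, at 2.26 and 0.68.

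The genes at the center of the study stood as follows. IDO1, which commits tryptophan to the kynurenine pathway, had no peak within 10 kb of a TSS in either FLI1-KO list, and neither had AADAT, ACMSD and HAAO. Of the 12 kynurenine genes, 3 had a gained region, KYAT3 (17 tags), KYNU (11) and QPRT (8), and 2 a lost one, KMO (8) and KYAT1 (22), or 25% and 16.7% against 13.0% and 17.4% of all protein-coding genes. Their promoter pairs were level, at 113 and 101 tags for AFMID, 128 and 121 for KYAT1, 137 and 110 for KYAT3, and 37 and 47 for KMO, with each counting interval including a ratio of 1. FLI1 had no peak within 10 kb in either list. CREBBP, the gene of the acetyltransferase CBP, had 75 and 65 tags (0.876, 0.618 to 1.24), and KAT5 had 172 and 169 (0.993, 0.798 to 1.23). Of 9 lysine acetyltransferase genes, 0 had a gained and 0 a lost region, against the same shares of all genes.

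Other lists were read in the same way, and against the 13.0% of all protein-coding genes with a gained and 17.4% with a lost region. AP-1 factor genes had a gained region at 2 of 12 and a lost one at 3, and squamous epithelial genes at 2 and 3 of 18, or 16.7% and 25% for AP-1 and 11.1% and 16.7% for squamous genes. NF-κB factors and their feedback genes had 1 gained and 4 lost of 10 (10.0% and 40.0%), with NFKBIZ losing a region of 20 tags against a limit of 7. ETS factor genes had 2 gained and 5 lost of 15 (13.3% and 33.3%), the clearest at ELF3, where 25 tags stood against a limit of 9. The median log2 ratio of their promoters was -0.18, -0.09, -0.14 and -0.23 in this order, and no promoter pair of at least 60 tags in these lists was past 1.5-fold in either direction. Below that minimum, KRT17 of the squamous list, named after its values were seen, had 39 tags untreated and 18 after IFN-γ, a ratio of 0.466 (0.251 to 0.835), and 67 and 64 tags in WT cells.

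Peaks present in both libraries changed little. Of 48175 peaks that overlapped one to one, 26811 had tags summing to at least 60. Their median log2 ratio was -0.16 (SD over peaks 0.25), a change of -10.5%, although the libraries had nearly the same depth. The median log2 ratio went from -0.12 in the lowest of 4 classes of summed tags (60 to 81) to -0.19 in the highest (173 to 727), and it was -0.16 both near and away from promoters. The median shared peak stood 18.3 times above the library's background after IFN-γ and 19.5 times above it without. The part of this difference in signal over background in the common shift was not tested.

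Past 1.5-fold, 149 shared peaks (0.556%) were higher after IFN-γ and 1117 (4.17%) were lower. Relative to the median ratio the split turned, with 466 peaks (1.74%) higher and 278 (1.04%) lower. The counting interval of the ratio excluded the median in 696 peaks (2.60%), 379 above and 317 below, where intervals at the 95% level would leave out up to 5% from counting error alone. In WT cells, the same count was 2725 of 30530 (8.93%), 1927 above and 798 below. Single shared peaks are therefore given as values only.

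**Figure D4:**
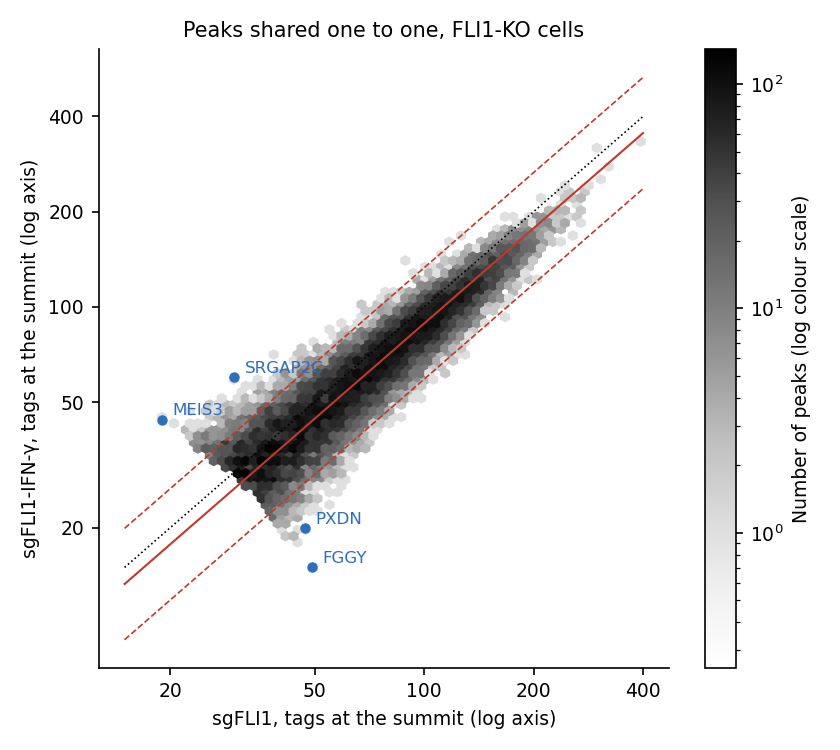
Tags at the summit of the 26811 peaks shared one to one, without IFN-γ on the x axis and after IFN-γ on the y axis, both on log axes, with the shade giving the number of peaks. The dotted line marks equal tags, the solid line the median ratio after division by tag density and the dashed lines 1.5-fold above and below it. The cloud lies along the solid line and narrows with height, and the peaks near MEIS3 and FGGY lie farthest from it.

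The highest ratio was that of a peak 17500 bp from the TSS of MEIS3, a homeobox gene, at 19 tags untreated and 44 after IFN-γ, a ratio of 2.34 (1.34 to 4.24). Among the next were peaks near SRGAP2C (30 and 60 tags), STRIT1 (23 and 46), IBTK (22 and 42) and at the CHMP6 promoter (23 and 43). SRGAP2C is a near-identical copy of another gene, and its nearest TSS was 3993109 bp away, so this peak is uncertain. In untreated WT cells these 5 peaks had 29 to 52 tags, above the untreated FLI1-KO value in each case. The lowest ratio was that of a peak at -6232 bp from FGGY, a carbohydrate kinase gene, at 49 tags untreated and 15 after IFN-γ, a ratio of 0.309 (0.161 to 0.561). Peaks near DAP (45 and 18 tags), PXDN (47 and 20), LNX2 (44 and 19), GNAZ (43 and 19) and COBL (43 and 19) came next. None of these 11 peaks held an IRF motif, and none had a gene of the IFN-γ list as its nearest gene.

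The bases around the summits differed between gained and lost regions. An IRF motif lay in 4.16% (3.8 to 4.55) of gained and 2.3% (2.06 to 2.56) of lost regions, compared with 2.35% of shared and 2.67% of all sgFLI1-IFN-γ peaks. At regions of at least 2 times the listing limit the shares were 5.39% (4.35 to 6.67) and 2.45% (1.83 to 3.27). Regions with exactly 2 times the limit in unscaled tags were included if gained and left out if lost, for this and the other motifs. Gained regions of up to 15 tags had it in 4.30%, and shared sgFLI1-IFN-γ peaks of the same height in 3.20%. The motif was in 11.2% (9.74 to 12.8) of the 1656 gained regions that overlapped a region gained in WT cells and in 2.88% (2.56 to 3.25) of the other 9120.

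The motif of CTCF, the architectural factor of chromatin loops, was in 6.37% (5.92 to 6.84) of gained and 4.67% (4.33 to 5.03) of lost regions, and in 7.85% of shared peaks. Among peaks of up to 15 tags it was in 4.40% of gained and 7.96% of shared sgFLI1-IFN-γ peaks, and in 3.79% of lost and 9.19% of shared sgFLI1 peaks. At 2 times the limit it was in 17.0% (15.2 to 19) of gained and 11.0% (9.65 to 12.6) of lost regions. Of the shared peaks past 1.5-fold higher relative to the median, 19.5% (16.2 to 23.4) held it, against 4.32% (2.49 to 7.39) of those lower and 5.45% of all 26811. Shared peaks with the motif had a median log2 ratio of -0.06 (1460 peaks) and those without it -0.16. In WT cells these medians were -0.11 and -0.06. Of the 4 shared peaks with this motif that had the highest ratio, 3 are printed with the motif in capitals, chosen after their values were seen. They had 27 and 48 tags near TRPC7, 30 and 52 near PRRC2B, and 29 and 50 near PREX1, without and with IFN-γ.
TRPC7, chr5:136686403-136686519: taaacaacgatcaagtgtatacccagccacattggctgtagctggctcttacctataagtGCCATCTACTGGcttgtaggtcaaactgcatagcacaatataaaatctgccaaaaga
PRRC2B, chr9:131336363-131336492: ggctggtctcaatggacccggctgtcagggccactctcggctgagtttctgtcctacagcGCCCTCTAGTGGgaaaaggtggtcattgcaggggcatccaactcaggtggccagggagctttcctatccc
PREX1, chr20:48657832-48657963: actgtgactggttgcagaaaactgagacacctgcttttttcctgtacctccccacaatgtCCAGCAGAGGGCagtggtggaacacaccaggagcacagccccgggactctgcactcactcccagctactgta
The AP-1 motif TGANTCA, bound by FOS and JUN proteins, went the other way. It was in 18.5% (17.8 to 19.2) of gained and 21.5% (20.8 to 22.2) of lost regions, and at 2 times the limit in 23.5% (21.4 to 25.7) and 31.3% (29.2 to 33.5). Of the shared peaks lower relative to the median, 35.3% (29.9 to 41.0) held it, compared with 21.0% (17.6 to 25) of those higher and 22.3% of all. The sequence of the shared peak with this motif that had the lowest ratio, near FGGY, is printed with the motif in capitals.
FGGY, chr1:59290387-59290506: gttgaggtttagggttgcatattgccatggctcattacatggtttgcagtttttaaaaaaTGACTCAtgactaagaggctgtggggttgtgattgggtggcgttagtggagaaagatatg
The ETS core CCGGAAGT, to which FLI1 and its relatives bind, was in 0.148% (0.0914 to 0.241) of gained and 0.249% (0.179 to 0.346) of lost regions, and in 1.66% of shared peaks. Among peaks of up to 15 tags the shares were 0.131% of gained, 0.219% of lost, and 0.256% and 0.244% of shared peaks with and without IFN-γ. The TEAD motif CATTCCA was in 5.07% of gained, 5.31% of lost and 4.95% of shared regions, and the NF-κB motif in 3.35%, 3.44% and 4.00%. All motifs were searched on both strands in the same window, and a match is a description of the bases there and not of a bound factor.

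**Figure D5:**
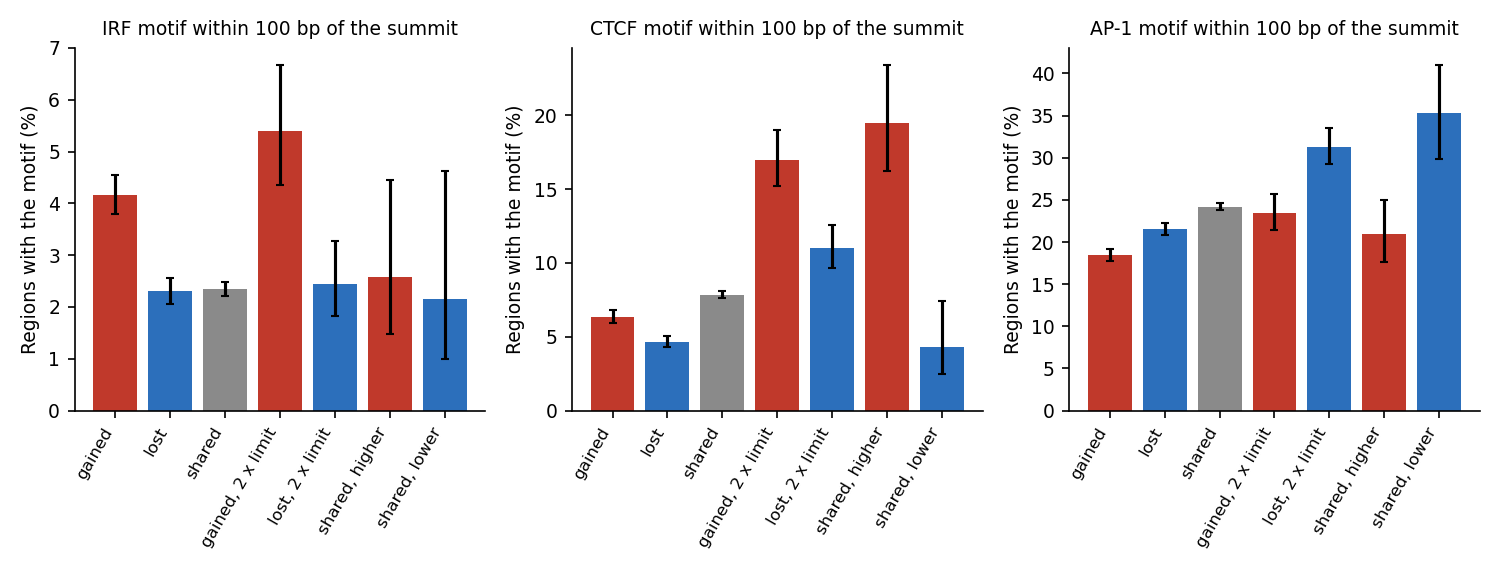
Percent of regions with the IRF, CTCF and AP-1 motif within 100 bp of the summit, with Wilson 95% intervals, for gained, lost and shared regions, for gained and lost regions of at least 2 times the listing limit, and for shared peaks past 1.5-fold higher or lower relative to the median ratio. The IRF motif stands at 4.16% of gained and 2.3% of lost regions, the CTCF motif at 19.5% of the higher and 4.32% of the lower shared peaks, and the AP-1 motif at 21.0% and 35.3%.

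GC content was examined within 100 bp of the same summits. The median was 47.3% in gained, 49.3% in lost and 53.2% in shared sgFLI1-IFN-γ peaks. In the lowest of 5 GC classes, from 20.9% to 43.8%, 3660 regions were gained and 3630 lost, and in the other 4 classes lost regions outnumbered gained ones. Shared peaks had a median log2 ratio of -0.12 in the lowest class and from -0.15 to -0.18 in the others. The part of GC content in the motif shares was not tested.

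The same regions were looked up in the WT lists, which share no library with the FLI1-KO pair. Of the gained regions, 22.2% were in both WT lists, 9.08% only without IFN-γ, 15.7% only with it and 53.0% in neither. Of the lost regions, the shares were 21.1%, 8.98%, 12.4% and 57.5%. Among gained regions at 2 times the limit, 54.9% (52.4 to 57.5) were in both WT lists and 15.4% in neither. A total of 1656 gained regions, 15.4% of them, overlapped one of the 16999 regions gained in WT cells, and 926 (8.59%) overlapped one of the 9482 lost there. The other way round, 9.72% of the regions gained in WT and 9.76% of those lost in WT were gained in FLI1-KO cells. Lost in FLI1-KO cells were 10.1% of the regions gained in WT and 13.0% of those lost in WT.

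Over 23662 peaks measured in both pairs, the log2 ratios after IFN-γ in FLI1-KO and WT cells had a Pearson r of 0.03 and a Spearman rho of 0.004. These points share libraries and neighboring peaks, and the values are a description. Of these peaks, 256 were past 2-fold higher in WT relative to the WT median, with a median of 1.22 on the log2 scale. In FLI1-KO cells the same peaks had a median of 0.14 above the FLI1-KO median, 171 of the 256 lay above it, and 1 was past 2-fold higher.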

How the data were processed

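Open chromatin of HK1 cells was profiled by ATAC-seq in 4 groups, with 1 library each. Per the submitters' processing notes and the study's methods, the authors used Trimmomatic 0.3 for trimming and Bowtie2 2.3.4.1 for alignment to GRCh38, removed alignments of low quality and duplicates, and called peaks with MACS2 2.1.2. Whether a list comes before or after the study's reproducibility filter, or from pooled replicates, is not given in the sources used here. The deposited lists hold, for each peak, a score, the fold over local background (a ratio), and the −log10 of p and of q, all from the summit. The score was not analysed.

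Summit tags were solved for from that fold and p, which a whole number of tags satisfied for 100% of peaks, within 0.01 of −log10 p. The lowest background over the shortest peak gave the tag density. Tag density depends on the genome size given to the caller and is used to compare libraries only. Intervals were Wilson's for shares, exact Poisson for tags and exact conditional for ratios. Each group had 1 library, so intervals cover counting error only. A shared peak was called higher or lower past 1.5-fold where its tags summed to at least 60. TSSs and exons came from GENCODE release 44 on GRCh38. Sequences were read from that genome.

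The members, gene lists and alternatives were chosen with earlier results of these data known. Named genes were the list members with a gained or a lost region within 10 kb, the 8 list promoters with the largest ratio each way, FLI1, IDO1, CREBBP, KAT5 and the kynurenine genes, and the nearest genes of the 8 gained and 8 lost regions, at least 400 bp wide, farthest past the listing limit and of the 6 shared peaks with the largest ratio each way. All 139 symbols of the IFN-γ list were found in the annotation. The steps were tested on simulated data. Scripts ran under Python 3.11.15. Tables were handled in pandas 2.3.3, intervals computed with scipy 1.17.1 and numpy 2.4.6, bases read with pysam 0.24.0 and plots drawn with matplotlib 3.10.9. Some genes and sequences that these rules name are not reported here, though the counts include them.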

Additional observations from a re-analysis of the deposited data

Results flagged for a closer look

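The difference between gained and lost regions had opposite signs in the 2 kinds of cells. In FLI1-KO cells the number of gained minus lost regions was -3271 (10776 gained and 14047 lost), and in WT cells it was 7517 (16999 gained and 9482 lost). Each kind of cell had 1 library per treatment, so the difference between them was not tested. The tag density after IFN-γ was 0.990 of that without it in FLI1-KO cells and 1.10 in WT cells, and the part of depth in the difference was not tested.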

How the results depend on the processing

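Of 56 recomputed values, 21 stayed close to the value reported and 35 did not, most of them because the alternative counts fewer or more regions by construction. With 50% overlap, a gap of 500 bp or all contigs, the counts of regions and list genes stayed within 1.5 times. More regions were lost than gained under every definition tried, with 1.28 to 1.59 lost for each one gained. With −log10 q of at least 5 in both lists, 5007 regions were gained and 7958 lost, and 11.7% of gained and 11.7% of lost ones lay near a TSS. Under this setting 19 list genes had a gained and 21 a lost region, the reverse of the main order of 31 and 27. The IRF motif was then in 5.15% of gained and 2.09% of lost regions. With that limit for the peak alone, 3285 were gained and 4970 lost, 10.7% and 10.8% lay near a TSS, 15 and 12 list genes had a gained and a lost region, and the IRF motif was in 5.14% of gained regions. A gap of 500 bp put 9.19% of gained and 9.68% of lost regions near a TSS, a window of 1 kb 4.82% and 5.19%, and the TSSs of all annotated genes 23.8% and 24.5%. Within 3 kb, 13 and 12 list genes had a gained and a lost region, and within 50 kb 72 and 69. The share of all protein-coding genes was computed only for the main lists at 10 kb. The list-gene counts under the alternatives therefore have no such share to be set against. The IRF motif within 50 bp of the summit stood in 1.85% of gained against 0.940% of lost ones, and anywhere in the peak in 7.83% and 5.23%. Shared peaks higher and lower numbered 466 and 278 relative to the median ratio, 4 and 24 past 2-fold, 1173 and 3312 with no minimum of tags, and 63 and 722 where the counting interval also excluded 1. Higher against lower thus turned with centring, while the IRF motif was more frequent in gained than in lost regions under each alternative. No paired analysis was possible because each group had 1 library. The depth limits regions of few tags most: the median gained region, at 11 tags, stood close to a limit of 7.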
